A study of Mus musculus with 4 samples.

Results

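The genes described here encode the contractile apparatus of smooth muscle and were chosen by name. They are *Acta2*, *Actg2*, *Myh11*, *Tagln*, *Cnn1*, *Cald1*, *Smtn*, *Lmod1*, *Des* and *Myocd*, 10 of the 45706 genes in the count table. RNA was sequenced from left lung lobes of mice at E17, 2 wild-type (Myh10+/+) and 2 homozygous for L458R in *Myh10* (Myh10-/-), all on the C57BL/6 background and without treatment. L458R is an ENU-induced missense substitution in the motor domain of non-muscle myosin heavy chain II-B, carried by every cell of the animal. The values are reads counted per gene in bulk tissue.

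Smooth muscle shortens when its myosin pulls on actin filaments, and calcium triggers this through phosphorylation of the myosin light chain. Its contractile genes are switched on together by serum response factor (SRF) and its coactivator myocardin. In the fetal lung, smooth muscle wraps the conducting airways and the blood vessels, and myofibroblasts of the alveolar septa also produce smooth muscle actin.

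The total count per lung was 19116971 to 32055306. All 10 genes passed the minimum of 5 counts on average, with means of 219 to 10039 counts per lung. Levels are given as CPM, the count of a gene per 1000000 counts of the lung after TMM scaling. *Myh10* itself had 505 and 504 CPM in Myh10+/+ and 539 and 513 CPM in Myh10-/- lungs, with a log2 fold change of 0.06 (adjusted p = 0.662, edgeR), but a single-base substitution leaves the count of a gene unable to check the labels. The lung transcription factor *Nkx2-1* had 434 to 455 CPM (lowest and highest lung). The surfactant protein C gene *Sftpc* had 5815 and 5630 CPM in Myh10+/+ and 3876 and 4750 CPM in Myh10-/- lungs. Its log2 fold change was -0.41 (adjusted p = 0.173, edgeR). Markers of the labelled tissue were thus present in each lung. *Xist* reached 3916 CPM in lung 1 of Myh10+/+ and 4457 CPM in lung 2 of Myh10-/-, against 1.84 and 4.10 CPM in the other lungs, so each genotype held 1 lung with and 1 without this transcript of the inactive X chromosome.

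None of the 10 smooth muscle contractile genes passed an adjusted p-value of 0.05 between the genotypes. The quasi-likelihood test of edgeR called 0 of 10, and 0 had an unadjusted p-value under 0.05. The Wald test of DESeq2 likewise called 0 of 10, with 0 under an unadjusted 0.05, although its filter on low means gave no adjusted p-value for *Cnn1* and *Lmod1*. Of all 18763 genes tested, 308 (1.64%) were called, 252 of them (1.34%) lower and 56 (0.298%) higher in Myh10-/- lungs, and 16.5% had an unadjusted p-value under 0.05. With library totals in place of TMM scaling, 67.6% of the called genes were lower, against 81.8% with TMM. The fold changes of the 10 genes ran from a log2 value of -0.12 (*Acta2*) to 0.12 (*Myocd*), with a median of -0.045, against a median of 0.0018 over all genes tested. In bulk tissue, fewer cells of a type cannot be told apart from less RNA per cell, and a p-value above the threshold does not show that the genotypes are alike.

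**Figure D1:**
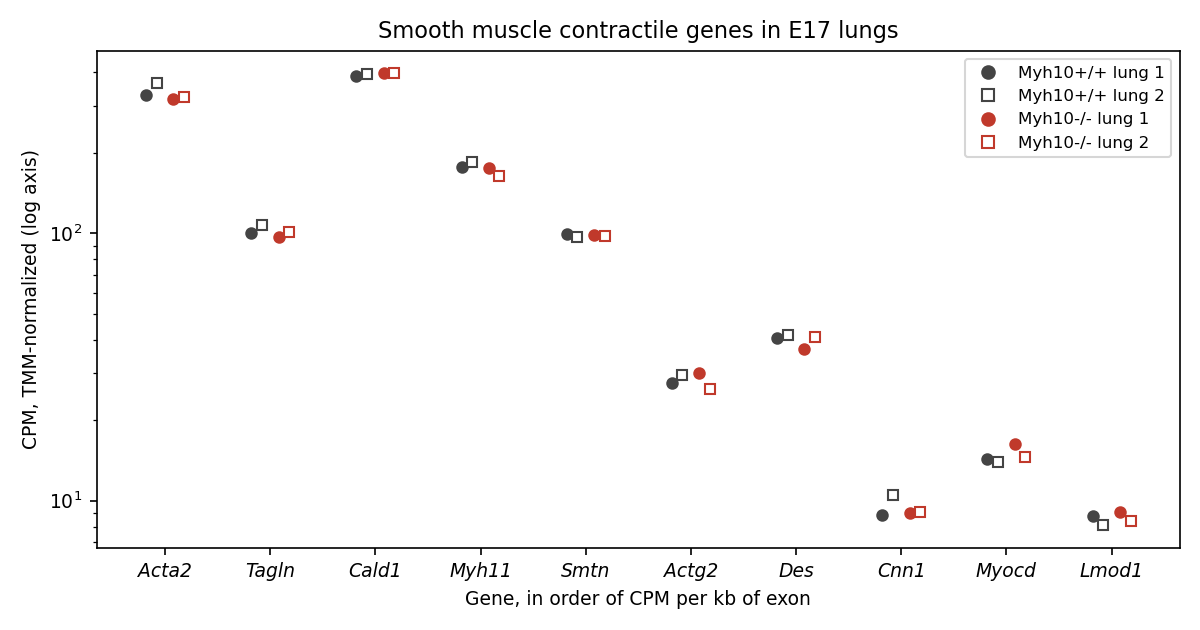
CPM of each smooth muscle contractile gene (horizontal axis, ordered by CPM per kb of exon) in each of the 4 lungs, on a log axis. Each symbol is 1 lung. The spread within a gene ran from that of *Smtn*, between 97.1 and 99.3 CPM, to that of *Cnn1*, between 8.86 and 10.5 CPM.

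The actins form the thin filaments. *Acta2* (ENSMUSG00000035783, GRCm38 chr19:34241090-34255590, minus strand) encodes smooth muscle alpha-actin, the usual marker of smooth muscle and myofibroblasts. It had 329 and 365 CPM in Myh10+/+ lungs and 317 and 323 CPM in Myh10-/- lungs. Both Myh10-/- lungs were below both Myh10+/+ lungs, which holds for 24.3% of all genes tested, and the 2 Myh10+/+ lungs differed from each other by more (0.15 on the log2 scale) than the genotypes did. On the log2 scale the fold change was -0.12 (SE 0.056, adjusted p = 0.32, edgeR), with a 95% interval of -0.24 to 0.0050, which corresponds to a change between -15.3% and 0.350%. The means were 347 ± 25.0 CPM in Myh10+/+ and 319.7 ± 4.18 CPM in Myh10-/- lungs (SD, n = 2). Leaving out 1 lung moved the log2 fold change between -0.19 and -0.043, the former without Myh10+/+ lung 1 and the latter without Myh10+/+ lung 2. The unadjusted p-value of *Acta2* was 0.0587 in the reported fit (edgeR). With other edgeR settings on all 4 lungs it ran from 0.0171 (every gene with at least 1 count) to 0.113. The adjusted p-value stayed at 0.176 or above in these settings. *Actg2* (ENSMUSG00000059430, chr6:83512905-83536265, minus strand), the gamma-actin of visceral smooth muscle, had 27.5 and 29.6 CPM in Myh10+/+ lungs and 30.0 and 26.1 CPM in Myh10-/- lungs. The Myh10-/- lungs thus lay on either side of both Myh10+/+ lungs, and the log2 fold change was -0.025 (95% interval -0.21 to 0.16).

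These actins are close relatives, and reads that align to several places were left out of the counts. How far the genes can be counted apart thus depends on their sequences. After the start of the coding sequence, where they differ in length by 1 codon, the 1107 aligned coding bases of *Acta2* and *Actg2* were 84.37% identical, and the longest identical run was 29 bases, shorter than the 75-base reads. A stretch of 75 bases, 1 read length, from the first coding exon of each (bases 25 to 99 of the *Acta2* and 22 to 96 of the *Actg2* coding sequence, GRCm38 chr19:34252455-34252529 and chr6:83527346-83527420, both minus strand, written 5′ to 3′ from GENCODE transcripts) shows the pattern, with the 11 differing bases in capitals.
Acta2: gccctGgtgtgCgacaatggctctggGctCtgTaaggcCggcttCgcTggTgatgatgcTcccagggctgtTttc
Actg2: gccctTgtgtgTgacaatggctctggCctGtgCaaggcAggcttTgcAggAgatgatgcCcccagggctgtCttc
No window of 75 bases along the longest transcript of either actin occurred in a transcript of another gene (0 of 1961 windows for *Acta2* and 0 of 1259 for *Actg2*). This covers exact matches of full-length reads only. Reads were trimmed before an alignment that allowed mismatches, and shorter or mismatched reads were not examined.

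*Myh11* (ENSMUSG00000018830, chr16:14194535-14291372, minus strand) encodes the smooth muscle myosin heavy chain, which forms the thick filaments and is a relative of the mutated *Myh10*. It had 178 and 185 CPM in Myh10+/+ lungs and 176 and 164 CPM in Myh10-/- lungs. Myh10-/- lung 1 lay just below Myh10+/+ lung 1, so the genotypes did not overlap, and the 2 Myh10-/- lungs differed by 0.10 on the log2 scale, more than the genotypes. On the log2 scale the fold change was -0.093 (SE 0.052, adjusted p = 0.398, edgeR), with a 95% interval of -0.21 to 0.020. With 1 lung left out the value ranged from -0.14 (without Myh10-/- lung 1, unadjusted p = 0.00983, edgeR) to -0.041 (without Myh10-/- lung 2). None of its 6475 windows of 75 bases occurred in another gene. Per kb of exon, *Myh11* had 21.6 to 24.4 CPM and *Myh10* 48.2 to 51.6 CPM, so in each of the 4 lungs the non-muscle gene was at the higher level per length.

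The next group binds actin filaments and tunes contraction. *Tagln* (ENSMUSG00000032085, chr9:45929619-45936058, minus strand), which encodes transgelin or SM22-alpha, had 101 and 107 CPM in Myh10+/+ lungs and 97.3 and 102 CPM in Myh10-/- lungs. The genotypes overlapped, and the log2 fold change was -0.065 (95% interval -0.19 to 0.062), with a range of -0.11 (without Myh10+/+ lung 1) to -0.019 (without Myh10+/+ lung 2) when 1 lung was left out. GENCODE annotation places genes on the opposite strand over its exons, *Pcsk7* over 108 bases and *Gm48529* over 1241 bases (62.4% of its exon length). *Gm48529* is not a row of the count table, and no source used here says if reads were assigned by strand, so the count of *Tagln* is uncertain. *Cnn1* (ENSMUSG00000001349, chr9:22099216-22109630), the gene of calponin, which slows the myosin cycle on actin, had 8.86 and 10.5 CPM in Myh10+/+ lungs and 9.02 and 9.07 CPM in Myh10-/- lungs. Myh10+/+ lung 2 alone stood above the other lungs, and the log2 fold change was -0.088 (95% interval -0.35 to 0.17). The lower end of this interval is a change of -21.3%, the lowest bound among the 10 genes.

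*Cald1* (ENSMUSG00000029761, chr6:34598500-34775473) encodes caldesmon, which blocks myosin binding on actin and has both smooth muscle and non-muscle forms that a count per gene does not separate. It had the highest CPM of the 10 genes, with 386 and 395 CPM in Myh10+/+ lungs and 396 and 397 CPM in Myh10-/- lungs. Both Myh10-/- lungs were above both Myh10+/+ lungs, as for 23.9% of all genes tested, by a log2 fold change of 0.022 (95% interval -0.086 to 0.13). Corrected for the GC content and exon length of genes, this value was -0.023. *Smtn* (ENSMUSG00000020439, chr11:3517523-3540612), the gene of the actin-associated protein smoothelin, had 99.3 and 97.1 CPM in Myh10+/+ lungs and 98.6 and 98.1 CPM in Myh10-/- lungs. Both Myh10-/- values lay between those of the Myh10+/+ lungs, and the log2 fold change was 0.0018 (95% interval -0.12 to 0.12). Genes on the opposite strand cover 714 bases (*Gm11946*, 0.653 to 1.05 CPM) and 39 bases of its exons. *Lmod1* (ENSMUSG00000048096, chr1:135324807-135368065), whose product leiomodin starts new actin filaments in smooth muscle, had the lowest mean CPM, although it overlapped *Cnn1*, with 8.73 and 8.09 CPM in Myh10+/+ and 9.09 and 8.36 CPM in Myh10-/- lungs. The genotypes overlapped, with a log2 fold change of 0.049 (95% interval -0.21 to 0.31).

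*Des* (ENSMUSG00000026208, chr1:75360329-75368579) encodes desmin, an intermediate filament protein that links the contractile units of smooth and also of striated muscle. It had 40.5 and 41.5 CPM in Myh10+/+ lungs and 37.0 and 41.1 CPM in Myh10-/- lungs. Only Myh10-/- lung 1 was lower than the rest, and the log2 fold change was -0.069 (95% interval -0.24 to 0.11). Markers of striated muscle summed to 332 and 402 CPM in Myh10+/+ lungs and 273 and 246 CPM in Myh10-/- lungs, with 0 of the 18 listed genes at 0 in every lung, and their part in the level of *Des* was not tested. A gene on the opposite strand, *Gm15179*, covers 220 bases of *Des* exons and had 0 to 0.0437 CPM.

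*Myocd* (ENSMUSG00000020542, chr11:65176561-65269989, minus strand) encodes myocardin, the coactivator that turns on the other genes of this group through SRF. It had 14.3 and 14.0 CPM in Myh10+/+ lungs and 16.3 and 14.5 CPM in Myh10-/- lungs. Both Myh10-/- lungs were above both Myh10+/+ lungs, but the 2 Myh10-/- lungs differed by 0.16 on the log2 scale and the genotypes by 0.12 (SE 0.092, adjusted p = 0.547, edgeR). The 95% interval was -0.078 to 0.32, and its upper end is a change of 25.2%, the highest bound among the 10 genes. With 1 lung left out the value ranged from 0.044 (without Myh10-/- lung 1) to 0.21 (without Myh10-/- lung 2).

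**Figure D2:**
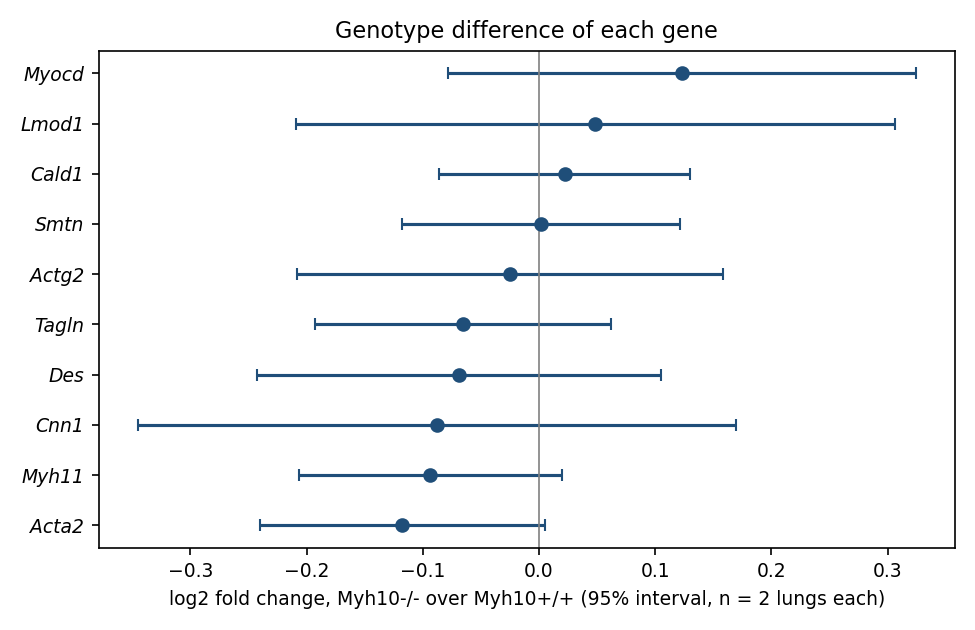
Log2 fold change of each smooth muscle contractile gene, Myh10-/- over Myh10+/+ (horizontal axis, log2 units), as points with 95% intervals from the quasi-likelihood fit, n = 2 lungs per genotype. Every interval crosses 0, that of *Acta2* only just, at 0.0050.

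Per kb of exon, which allows levels to be compared between genes, *Acta2* led with 144 to 166 CPM per kb over the 4 lungs, followed by *Tagln* (48.9 to 54.1) and *Cald1* (32.1 to 32.9). *Myh11* (21.6 to 24.4) and *Smtn* (22.2 to 22.7) overlapped and had no order. *Actg2* (16.8 to 19.3), *Des* (9.86 to 11.1) and *Cnn1* (3.24 to 3.82) followed, each apart from its neighbours, and *Myocd* (2.17 to 2.53) and *Lmod1* (2.05 to 2.30) overlapped at the bottom. Lengths are the merged exons of all annotated transcripts. With the longest transcript instead, *Cald1* moved ahead of *Tagln* and *Smtn* ahead of *Myh11*, and the other places stayed.

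The 10 genes together took 1193 and 1252 CPM in Myh10+/+ lungs and 1186 and 1182 CPM in Myh10-/- lungs. Only Myh10+/+ lung 2 stood above the others. It was the highest lung for 5 of the 10 genes (*Acta2*, *Tagln*, *Myh11*, *Des* and *Cnn1*) but the lowest for 3 (*Smtn*, *Myocd* and *Lmod1*). Myh10-/- lung 1 was highest for 3 (*Actg2*, *Myocd* and *Lmod1*). For each of the 10 genes, the genotypes differed by less than the larger gap between 2 lungs of the same genotype, as did 65.9% of all genes with such a gap. Gaps between the Myh10+/+ lungs ran from -0.11 (*Lmod1*) to 0.24 (*Cnn1*) on the log2 scale, lung 2 over lung 1, and those between the Myh10-/- lungs from -0.20 (*Actg2*) to 0.15 (*Des*). The genotypes did not overlap for 4 of the 10 genes, 2 lower and 2 higher in Myh10-/- lungs, against 48.3% of all genes tested.

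**Figure D3:**
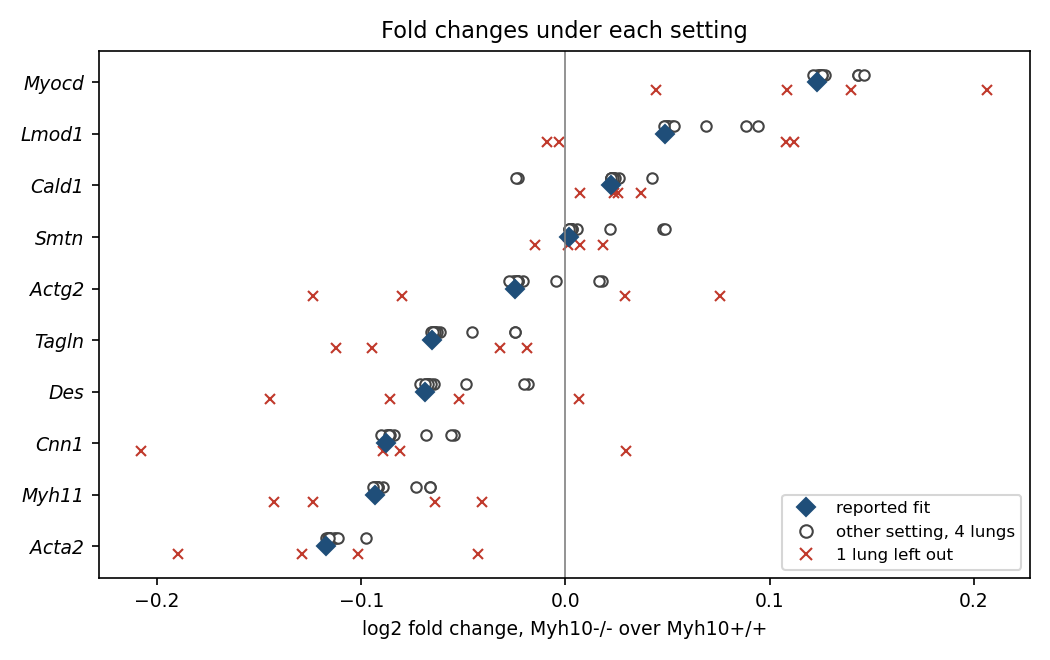
Log2 fold change of each smooth muscle contractile gene (horizontal axis, log2 units, Myh10-/- over Myh10+/+) in the reported fit, in 11 other settings with all 4 lungs (without DESeq2 for *Cnn1* and *Lmod1*) and with each lung left out. No point passes an adjusted p-value of 0.05, and the crosses for *Actg2*, *Cnn1*, *Des*, *Lmod1* and *Smtn* lie on both sides of 0.

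The other genes of the smooth muscle apparatus were read from a list of 22, which holds the light chain and its kinase, tropomyosins, the myosin phosphatase and anchoring proteins. The test of edgeR called 0 of 22 (1 with an unadjusted p-value under 0.05), and the Wald test of DESeq2 called 0 (1 under an unadjusted 0.05). Their log2 fold changes ran from -0.20 to 0.20 with a median of 0.0045, with 11 below and 11 above 0. *Flna*, the gene of the actin crosslinker filamin A, had 1868 and 1861 CPM in Myh10+/+ and 1885 and 1883 CPM in Myh10-/- lungs. *Mylk*, the gene of the kinase that starts contraction by phosphorylating the light chain, had 773 and 713 CPM in Myh10+/+ and 796 and 772 CPM in Myh10-/- lungs, with a log2 fold change of 0.078 (adjusted p = 0.66, edgeR). The lowest p-value of the list belonged to *Nexn*, which encodes the actin-binding protein nexilin and is singled out here after its values were seen. It had 165 and 162 CPM in Myh10+/+ lungs and 197 and 180 CPM in Myh10-/- lungs, which is a log2 fold change of 0.20 (adjusted p = 0.0849, edgeR). It passed in 3 of 15 other fits, among them the fit with the replicate number as a block (adjusted p = 0.026, edgeR) and the fit without Myh10-/- lung 2 (adjusted p = 0.00232, edgeR). Corrected for the GC content and exon length of genes, its log2 fold change was 0.10 (adjusted p = 0.286, edgeR).

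Of 10 transcriptional regulators of smooth muscle genes, 1 was lower and 0 were higher at an adjusted p-value of 0.05. Among all genes tested, 1.34% were lower and 0.298% higher. An unadjusted p-value under 0.05 (edgeR) was found for 2 regulators, against 16.5% of all genes tested. The log2 fold changes of 9 regulators were below 0 (median -0.083). For 7, both Myh10-/- lungs were below both Myh10+/+ lungs, against 24.3% of all genes tested. *Klf4*, a zinc finger factor known to repress smooth muscle genes, had 43.5 and 39.6 CPM in Myh10+/+ lungs and 29.7 and 32.0 CPM in Myh10-/- lungs. It fell by 0.43 on the log2 scale (SE 0.082, adjusted p = 0.0247, edgeR) and passed in 14 of 15 other fits, the exception being without Myh10-/- lung 1 (adjusted p = 0.0566). *Srf* and its coactivators of the myocardin family are named for their role rather than their values. *Srf* had 88.3 and 90.3 CPM in Myh10+/+ lungs and 85.6 and 82.8 CPM in Myh10-/- lungs. Its difference of -0.085 on the log2 scale (95% interval -0.21 to 0.044) did not pass. The log2 fold changes of *Mkl1* and *Mkl2*, which encode the myocardin-related factors, were -0.10 (adjusted p = 0.512, edgeR) and -0.040 (adjusted p = 0.772, edgeR).

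SRF binds the CArG box, 2 C bases, 6 bases of A or T and 2 G bases, a pattern that reads the same on both strands. RefSeq promoter windows (GRCm38.p6, 250 bases before to 50 bases after a start) were at hand for 6 of the 10 genes, and 0 of them held the exact box, against 1.81% of all 27025 genes with a window. With 1 G or C allowed among the 6 central bases, the window of *Acta2* held 2 boxes and the other 5 genes none, against 11.3% of all genes with at least 1. Both *Acta2* boxes are shown 5′ to 3′ on the minus strand with 10 bases on either side and the box in capitals, the first 84 to 75 bases before the start (chr19:34255438-34255467) and the second 34 to 25 bases before it (chr19:34255388-34255417).
Acta2 box 1: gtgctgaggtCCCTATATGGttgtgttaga
Acta2 box 2: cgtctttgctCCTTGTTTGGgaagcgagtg
In the list of other smooth muscle genes, 3 of the 20 genes with a window held the exact box and 6 the relaxed one. A match describes the letters of the window and not a bound site. Of the 10 genes, *Tagln*, *Myh11*, *Myocd* and *Actg2* had no window. Sequence outside the windows was not searched, so the count of 0 does not show that the 10 genes lack exact boxes.

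Smooth muscle differs between vessels and airways, and a list of vascular markers was read. Of 7 vascular markers 0 were called (1 with an unadjusted p-value under 0.05), with a median log2 fold change of -0.096. For 4 of the 7, both Myh10-/- lungs were below both Myh10+/+ lungs, against 24.3% of all genes tested. The marker with the low p-value, named after its values were seen, was *Itga7*. Its log2 fold change was -0.28 (adjusted p = 0.155, edgeR), and it passed in 3 of 15 other fits. *Gucy1a3*, a subunit of the nitric oxide receptor guanylate cyclase, had 368 and 365 CPM in Myh10+/+ and 348 and 339 CPM in Myh10-/- lungs, which is a log2 fold change of -0.096 (adjusted p = 0.35, edgeR). *Mcam*, an adhesion molecule, had 336 and 317 CPM in Myh10+/+ and 302 and 309 CPM in Myh10-/- lungs, which is a log2 fold change of -0.098 (adjusted p = 0.357, edgeR).

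Striated muscle genes encode a parallel apparatus of heart muscle and of the cardiac muscle sleeves of the pulmonary veins. Of 18 listed genes 16 had enough counts to be tested. Of these, 6 were lower (*Myh6*, *Myl7*, *Ryr2*, *Tnnt2*, *Myl4* and *Mybpc3*) and 0 higher, against 1.34% and 0.298% of all genes tested. The median log2 fold change of the 16 striated genes was -0.58, against -0.045 for the smooth muscle contractile genes. A test of the difference between the lists was not run. The 2 Myh10+/+ lungs were themselves apart, with *Myh6*, the alpha heavy chain of heart muscle, at 51.2 and 66.9 CPM, against 38.2 and 33.0 CPM in Myh10-/- lungs. Without Myh10+/+ lung 2, 3 striated genes were called, and without Myh10+/+ lung 1, 10. Myh10+/+ lung 2, the highest in striated muscle RNA, was also the lung with the highest sum over the 10 smooth muscle genes. That lung was nevertheless the lowest for 3 of the 10. Without it the median log2 fold change of the 10 genes was -0.0089, and the part of striated muscle in that sum was not tested.

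**Figure D4:**
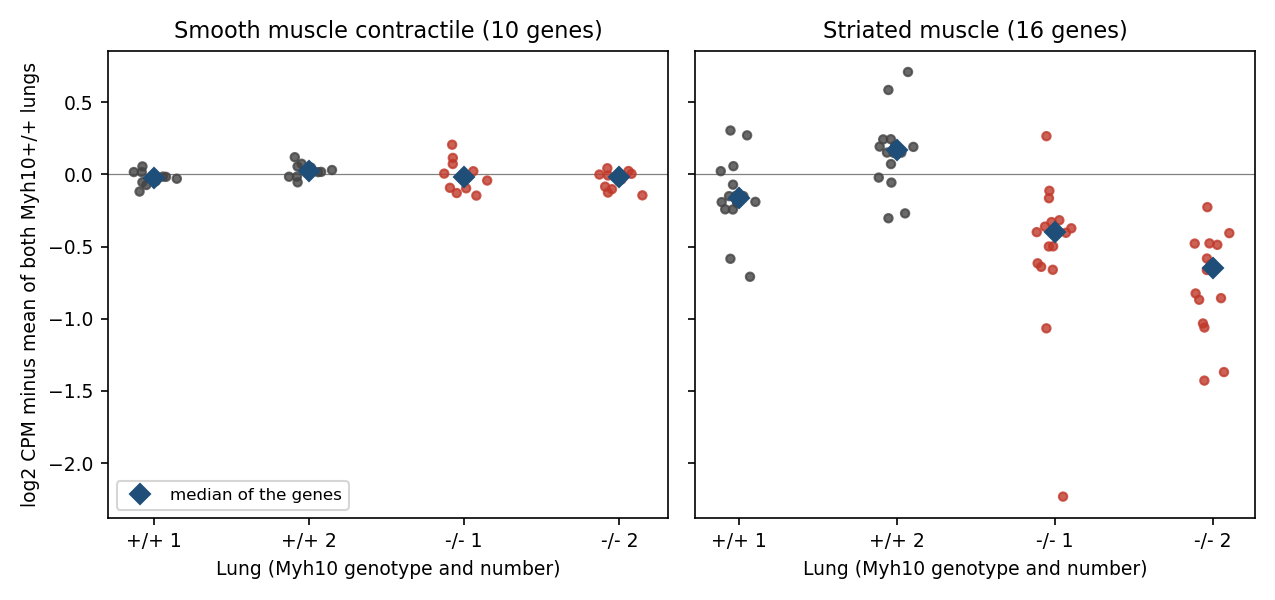
Log2 CPM of each gene minus its mean in both Myh10+/+ lungs (vertical axis, log2 units) for the 10 smooth muscle contractile genes and the 16 tested striated muscle genes, by lung, with 1 point per gene and a diamond at the median. The smooth muscle medians lie close to 0 in all 4 lungs. Of the 16 striated genes, 14 were lower in both Myh10-/- lungs than in both Myh10+/+ lungs, against 24.3% of all genes tested.

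Cells next to smooth muscle were read from further marker lists. Of 8 fibroblast markers 0 were called (1 with an unadjusted p-value under 0.05), with a median of 0.0068. The collagen genes *Col3a1* and *Col1a2* had log2 fold changes of 0.011 and -0.061. Of 7 pericyte markers 0 were called, although 4 had an unadjusted p-value under 0.05, against 16.5% of all genes tested. The median was -0.22. Each of the 7 was lower in both Myh10-/- lungs than in both Myh10+/+ lungs, against 24.3% of all genes tested. The summed pericyte level was 475 and 472 CPM in Myh10+/+ lungs and 428 and 433 CPM in Myh10-/- lungs, and *Pdgfrb* and *Rgs5*, its most abundant genes, had log2 fold changes of -0.099 and -0.021. The 4 with the low p-values, named after their values were seen, were *Kcnj8* (-0.47), *Abcc9* (-0.30), *Higd1b* (-0.26) and *Cox4i2* (-0.22). Of 15 other fits, *Kcnj8* passed in 5, among them those without Myh10+/+ lung 1 (adjusted p = 0.0132, edgeR), without Myh10-/- lung 2 (2.77e-04) and with the replicate block (0.00851). *Abcc9* passed in 5, all with 4 lungs (lowest adjusted p = 0.0232, edgeR), and *Higd1b* and *Cox4i2* each in 1, without Myh10-/- lung 2 (adjusted p = 0.0073 and 0.0328, edgeR). The Wald test of DESeq2 called 0 of the fibroblast, pericyte and vascular markers as well, with 0, 4 and 1 under an unadjusted p-value of 0.05.

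Further lists cover cell types that the lobe also holds. Of 6 epithelial markers 2 were called lower (*Krt8* and *Cdh1*). In each of the endothelial (*Cldn5*, of 7), leukocyte (*Lyz2*, of 5), erythroid (*Alas2*, of 3) and mesothelial (*Msln*, of 4) lists 1 was lower. In all these lists 0 were higher, and of all genes tested 1.34% were lower and 0.298% higher. The list medians were -0.27 (epithelial), -0.10 (endothelial), -0.22 (leukocyte), -0.53 (erythroid) and -0.044 (mesothelial). Above 0 were 1 epithelial, 1 leukocyte and 2 mesothelial markers. The log2 fold changes of the genes called were -0.33 and -0.30 for *Krt8* and *Cdh1*, and -0.34, -0.44, -0.53 and -0.53 for *Cldn5*, *Lyz2*, *Alas2* and *Msln*. *Lyz2*, *Alas2* and *Msln* were not called by DESeq2 (adjusted p of 0.164, 0.141 and 0.132), *Msln* was also not called with robust = TRUE (adjusted p = 0.127, edgeR), *Cdh1* was not called without Myh10+/+ lung 1 (adjusted p = 0.107, edgeR), and *Cldn5* (0.0936) and *Alas2* (0.0679) were not called without Myh10+/+ lung 2. The part of these cell types in the levels of the smooth muscle genes was not tested.

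**Figure D5:**
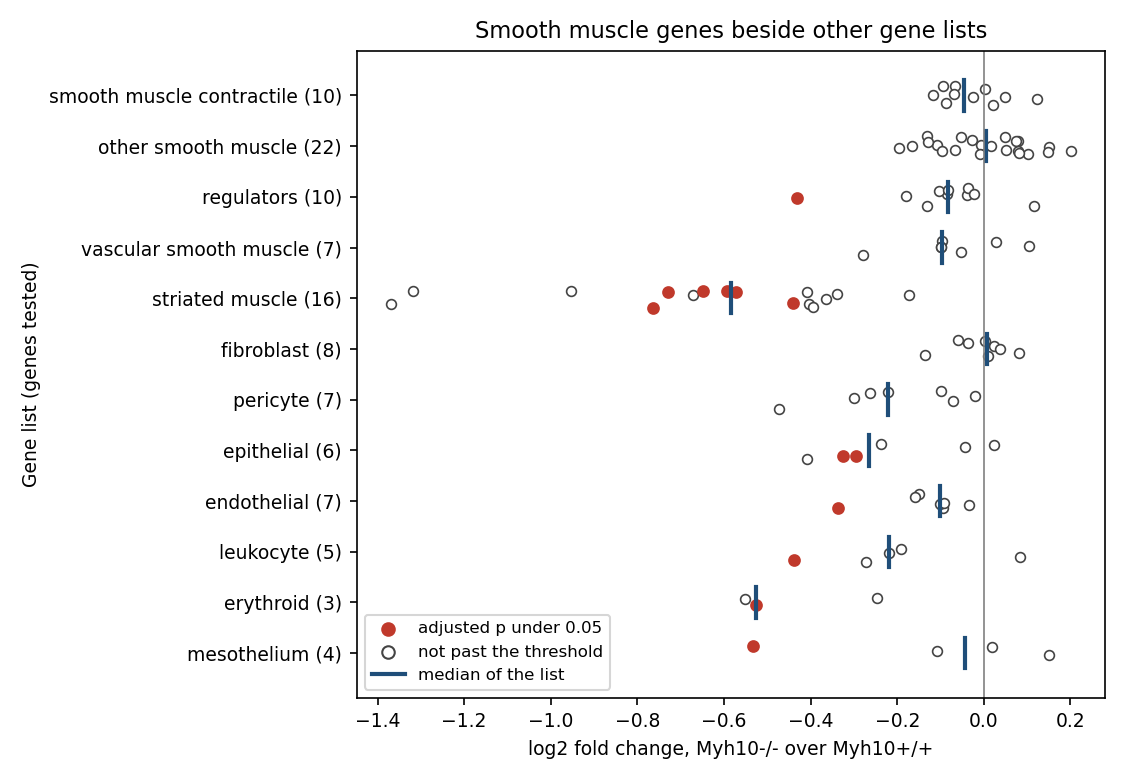
Log2 fold changes, Myh10-/- over Myh10+/+ (horizontal axis, log2 units), of the tested genes of each list described (vertical axis, number tested in parentheses). Filled points passed an adjusted p-value of 0.05 (0 of 10 smooth muscle contractile genes and 6 of 16 striated muscle genes, against 1.64% of all genes tested). Bars mark list medians.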

How the data were processed

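Total RNA of 4 E17 left lung lobes was sequenced as stranded mRNA libraries with single-end reads of 75 bases. The authors deposited raw counts of reads per Ensembl gene, made by trimming with Reaper, alignment to GRCm38 with STAR 2.4.0a and counting of reads at least partly in exons with featureCounts 1.5.1. A read was dropped if it matched more than 1 place or gene, so near-identical copies lose counts. The strand setting and annotation release are not given in the sources used here. The submitters' processing notes also name FastQC and DESeq2 1.14.1.

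The 10 genes and all lists were chosen with earlier results of these data known. Genes averaging 5 counts or more were tested in R 4.3.3 with edgeR 4.0.16 (quasi-likelihood test, TMM scaling, robust = FALSE) with Benjamini-Hochberg adjustment over all 18763 genes, and 95% intervals come from that fit. The test was run on counts simulated from the mean levels of these genes, with the same dispersion for every gene. That simulation did not carry the variation of single genes between these lungs, so it does not check the test for it. Lengths, overlaps and read windows come from GENCODE M21, and promoters from RefSeq. The 15 alternatives were other scalings, filters and dispersions, DESeq2 1.42.0, blocks, a GC and length correction (loess, span 0.3) and each lung left out. Genes named are the 10, *Myh10*, and from each list those called or otherwise the 2 with the highest mean count, with exceptions stated in the text. No list was tested as a set. A further marker list is not reported here.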

Additional observations from a re-analysis of the deposited data

How the results depend on the processing

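The number of smooth muscle contractile genes called stayed at 0 of 10 in each of the 15 alternatives, with no adjusted p-value from DESeq2 for *Cnn1* and *Lmod1*, and adjusted p-values of single genes ranged from 0.176 (*Acta2*) upward. Their median log2 fold change was -0.045 in the reported fit and lay between -0.046 and -0.021 in the other settings with all 4 lungs. With 1 lung left out it lay between -0.083 and -0.0089, in a fit that assumes the lone lung of a genotype to vary like the others. With the correction for GC content and exon length, without and with the replicate block, *Actg2* changed sign to 0.018 and 0.016 and *Cald1* to -0.023 and -0.024. With 1 lung left out the values ranged from -0.12 to 0.075 for *Actg2*, -0.21 to 0.029 for *Cnn1*, -0.015 to 0.018 for *Smtn*, -0.0091 to 0.11 for *Lmod1*, -0.14 to 0.0067 for *Des* and -0.021 to 0.046 for *Col3a1*.

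The count of all genes called was 308 and became 1162 with every gene with at least 1 count, 474 with robust = TRUE, 710 with the replicate block and 529 with the block and the correction. With 1 lung left out it lay between 206 and 1643, the latter without Myh10-/- lung 2. Other smooth muscle genes called numbered 1 with every gene and 1 with the replicate block, and 0 to 4 with 1 lung left out (4 without Myh10-/- lung 2). Striated muscle genes called numbered 11 with every gene, and 3 to 10 with 1 lung left out. The cause of these shifts was not tested. Lungs of the same number were not shown to be paired, as their deviations had a correlation of -0.20 across genes, -0.74 where genes averaged 250 counts or more and -0.027 once X and Y genes were removed (genes are not independent replicates). The replicate block, in which each number joined 1 lung with and 1 without a high level of *Xist*, called 0 of the 10 genes. Crossing the numbers instead joined the lungs with *Xist*, and likewise those without it. A difference between blocks thus cannot be told apart from the *Xist* difference in that setting. It was chosen after seeing the data, and 0 of 10 and 415 of all genes were called. Depth limits the genes with the fewest counts, *Lmod1* and *Cnn1*, whose standard errors were 0.12, against 0.050 for *Cald1*. The largest adjusted p of the striated genes called was 0.246 for *Myl4*, without Myh10+/+ lung 2.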
